A study of Mus musculus with 28 samples.

Results

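The lysosome, V-ATPase and TFEB target genes were followed through the reprogramming of mouse embryonic fibroblasts (MEFs) with and without inhibition of the stress kinase p38. The group held 43 of the 50600 genes in the table and was taken by gene symbol: 4 genes of the Rag-folliculin arm of mTORC1 control, 8 genes of the lysosomal membrane and lipid export, 4 autophagy genes, 14 hydrolases and their activators, and 13 genes of the vacuolar ATPase (V-ATPase) and its accessory proteins. They were put together with results of these libraries in view, and Rragd was already known to stand high in p38i over DMSO on day 3. That comparison is therefore given below as a description with no test. All 43 symbols were found, and 42 passed the filter on low values, a mean of at least 1 over all libraries. Atp6v0d2, the d2 isoform of the V-ATPase stalk found mainly in osteoclasts and macrophages, did not pass: its values lay between 0 and 3, and it was the only member listed at 0 in any library.

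The cells were wild-type primary MEFs of the OG2 line, which carries an Oct4-GFP reporter, made from mid-gestation embryos of either sex, the offspring of OG2 males and wild-type females. There were 28 RNA-seq libraries in 14 groups of 2. Untreated MEFs and MEFs grown with SB203580, an inhibitor of the p38 kinases (p38i), were sampled before induction. The 3 arms that followed received Oct4, Klf4 and Sox2 by retrovirus in iCD1 medium and were sampled on days 1, 3, 5 and 7: the control arm (DMSO by the study's methods, though the labels name no vehicle), the p38i arm with the inhibitor during induction, and the pre-p38i arm with the inhibitor before induction. The cultures were sequenced in bulk and hold reprogrammed and unreprogrammed cells together, so more cells of a type and more RNA per cell cannot be told apart. Nothing says that the 2 libraries of a group came from separate embryos or cultures, so the p-values measure the spread between these libraries, which may be technical.

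Lysosomes are acidic organelles in which hydrolases break down protein, lipid, glycan and glycogen. The V-ATPase pumps the protons that keep them acidic, and it also takes part in sensing amino acids for mTORC1 on the lysosomal surface. TFEB, TFE3 and MITF are related transcription factors that bind the CLEAR element, an extended E-box, in the promoters of many lysosomal and autophagy genes. When mTORC1 is active these factors are phosphorylated and held in the cytoplasm, and the folliculin complex and RagC/RagD GTPases take part in that step. Several of their targets, Rragd and Flcn among them, thereby feed back on mTORC1.

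The values are read as TPM (transcripts scaled to a fixed total per library), rounded down to whole numbers. The unit is inferred, and levels can be compared between genes only if this reading holds. The libraries summed to between 991287 and 992537, and between 12454 and 14170 genes reached a value of 1. The 10 most abundant genes took 6.28% to 10.6% of a library and mitochondrial genes took 1.95% to 6.18%. The fibroblast markers (10 genes, Col1a1 and Col3a1 among them) summed to 7880 and 7658 in untreated MEFs and, in pre-p38i on day 7, to 954 and 900. Most of the MEF sum came from Col1a1 (4164 and 3867) and Col1a2 (2492 and 2549), and Lum rose from 0 and 0 to 23 and 28. In limma at an adjusted p under 0.05, 4 of the 10 were higher and 5 lower in DMSO day 1 than in untreated MEFs. In DMSO day 7, 3 were higher and 7 lower (55.5% and 66.8% of all genes called). The pluripotency markers (9 genes, Nanog among them) summed on day 7 to 82 and 94 in DMSO, to 8 and 10 in p38i and to 147 and 140 in pre-p38i, while they were at 0 in all 4 MEF libraries. The fibroblast sum on that day was 1529 and 1627 in DMSO and 1702 and 1757 in p38i. The share of mitochondrial genes moved with the arms as well: on day 5 it was 4.83% and 4.54% in DMSO, 6.09% and 6.12% in p38i and 3.74% and 3.73% in pre-p38i. The 10 most abundant genes took 8.18% and 7.93%, 9.83% and 10.6%, and 7.05% and 6.89% in the same order. The part of these differences in the values below was not tested.

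Promoter sequences, which show the letters that MiT/TFE factors are known to bind, were available for 36 of the 43 members (RefSeq, GRCm38.p6, 250 bases before to 50 after the start). TCACGTG on either strand was present in 12 of the 36 (33.3%), against 4.29% of the 27025 genes with a promoter sequence. The full palindrome TCACGTGA, which contains it, was present in 8 members (22.2%) and in 1.12% of all genes. The shorter core CACGTG was present in 13 members (36.1%, against 8.09%), Ctsl being the one member with the core alone, and the M-box TCATGTG in 5 (13.9%, against 4.31%). The list was assembled in part from genes known as TFEB targets, so these shares describe the list. The 3 members below hold TCACGTG and are among the genes named in the comparisons. Lamp1 was added after its promoter had been seen, because its window held 4 copies, the most of any member. Sequences read 5′ to 3′ on the coding strand, with the motif in capitals.
Mcoln1, chr8:3500427-3500500, plus strand: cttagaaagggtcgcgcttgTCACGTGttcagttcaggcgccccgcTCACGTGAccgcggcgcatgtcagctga
Ctsd, distal site, chr7:142388046-142388077, minus strand: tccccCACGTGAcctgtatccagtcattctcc
Ctsd, proximal site, chr7:142387899-142387946, minus strand: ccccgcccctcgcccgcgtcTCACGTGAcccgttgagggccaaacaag
Fnip1, chr11:54438084-54438130, plus strand: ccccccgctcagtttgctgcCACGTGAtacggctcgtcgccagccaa
Lamp1, chr8:13159079-13159160, plus strand: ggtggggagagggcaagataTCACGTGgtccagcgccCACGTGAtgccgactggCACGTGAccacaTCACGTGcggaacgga
The Mcoln1 motifs began 72 and 46 bases before the start, the Ctsd motifs 245 and 99 bases, and the Fnip1 motif 75 bases. CACGTGA is the same motif read from the other strand. The other members with TCACGTG were Ctsa, Gaa, Gla, Glb1, Cln3, Atp6v0d1, Atp6v0e and Atp6v1a. Rragd, Gpnmb, Neu1 and Npc2, the 4 members with the largest differences between p38i and DMSO on day 7, held no TCACGTG in this window.

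In the control arm, which was induced without the inhibitor, every tested member was higher on day 1 than in untreated MEFs. Retroviral infection, the change to iCD1 medium, the vehicle and time in culture came together with the factors. Their parts in this rise cannot be told apart. From untreated MEFs to DMSO day 1 all 42 were called higher in limma at an adjusted p under 0.05, when 55.5% of all 13230 genes tested were called and 36.6% were called higher. The median log2 difference was 0.79 over the members and 0.14 over all genes. Neu1, the lysosomal sialidase, was at 16 and 16 in untreated MEFs and at 65 and 63 on day 1 (log2 difference 1.93, SE 0.073, adjusted p = 1.17e-14). Rragd went from 1 and 2 to 8 and 7 (1.79, SE 0.16, adjusted p = 1.13e-08), and Scarb2, the receptor that carries glucocerebrosidase to the lysosome, from 40 and 40 to 139 and 132 (1.73, SE 0.052, adjusted p = 3.34e-16). The smallest rise was that of Gusb, the β-glucuronidase, at 0.32.

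The levels then moved less uniformly. From day 1 to day 3, 17 members rose and 5 fell (44.5% of all genes called, 20.5% higher and 24.0% lower). Of the 14 hydrolases and activators 9 rose and none fell, Tpp1 rising the most (0.70, adjusted p = 2.99e-08). Of the 12 tested V-ATPase genes 2 rose and 4 fell, which is near the shares of all genes. The falls depended on the setting: after quantile normalization 23 members rose and 1, Uvrag, fell (45.5% called), with 5 V-ATPase genes rising and none falling. In a fit of only these 2 groups 12 members rose and none fell (28.0% called). From day 3 to day 5, 3 members rose (Fnip2, Sqstm1 and Ctsz) and 14 fell (19.4% called), a count of 17 that was 9 without DMSO day 3 replicate 1 and 11 without DMSO day 5 replicate 1. A fit of only these 2 groups called 0 members and 2.76% of all genes, and 14 members then had an unadjusted limma p under 0.05. From day 5 to day 7 none rose and 31 fell (26.7% called, 16.4% lower), Gpnmb by 0.60 and Ctsl by 0.59 on the log2 scale, while 9 of the 10 fibroblast markers were also lower, a change whose part was not tested. By day 7, 38 members were still higher than in untreated MEFs and 1, Gusb, was lower (66.8% called, 43.0% higher). Uvrag, Lamp1 and Atp6v0d1 were the 3 members not called in that comparison, with log2 differences of 0.13, -0.032 and 0.074. The highest mean of the control arm fell on day 1 for 12 members, on day 3 for 21 and on day 5 for 10, with Atp6v0d2 tied between days 3 and 5. Rragd was the only one at its highest on day 7, and no member was at its highest before induction.

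**Figure D1:**
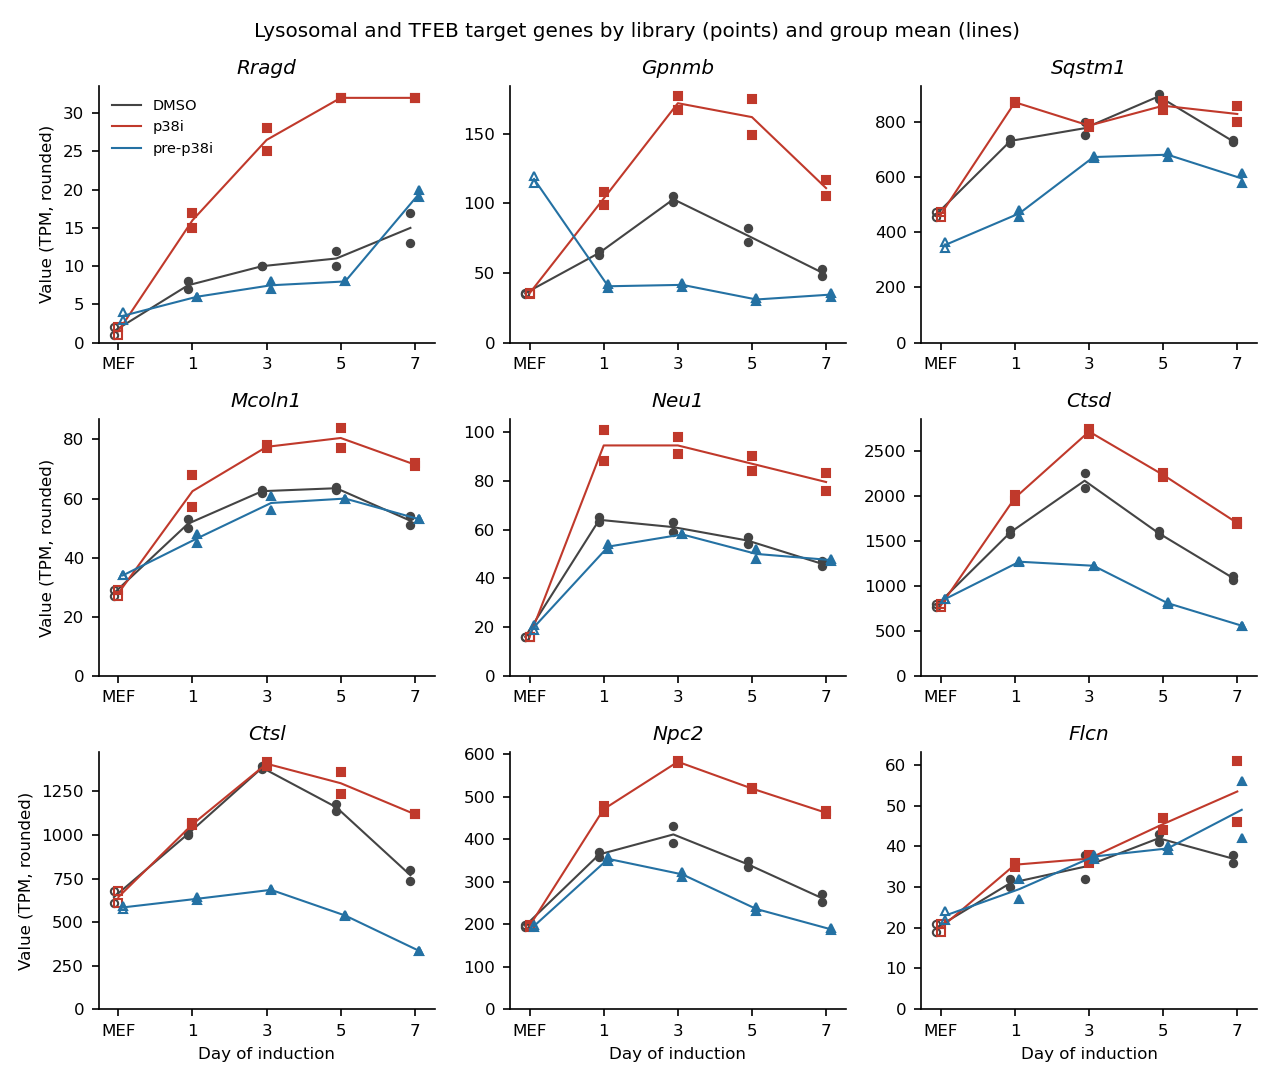
Values of 9 members by library (TPM, rounded down, vertical axis) in MEFs and on days 1, 3, 5 and 7 of induction (horizontal axis). Each point is a library and each line joins group means. The DMSO and p38i lines start at untreated MEFs and the pre-p38i line at inhibitor-treated MEFs (open symbols). The p38i libraries lie above the DMSO libraries for Rragd, Gpnmb, Mcoln1, Neu1, Ctsd and Npc2 on every day, and the pre-p38i libraries lie below them for Gpnmb, Sqstm1, Ctsd and Ctsl on every day.

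Before induction the inhibitor raised Gpnmb and moved few other members by much. Gpnmb, a lysosomal and melanosomal glycoprotein, was at 35 and 36 in untreated MEFs and at 120 and 115 in inhibitor-treated MEFs, a log2 difference of 1.70 (SE 0.084, adjusted p = 3.62e-11). Rragd was at 1 and 2 and then at 4 and 3 (0.87, adjusted p = 0.000787), at the low end of what whole numbers resolve. Fnip2, at 8 and 8 and then at 10 and 12, was called (0.41, adjusted p = 0.0164), but not after quantile normalization (0.32, adjusted p = 0.062) and not without untreated MEF replicate 1 or replicate 2 (adjusted p = 0.068 and 0.0689) or inhibitor-treated replicate 2 (0.195). Sqstm1, the autophagy receptor p62, fell from 475 and 455 to 343 and 365 (-0.39, adjusted p = 3.18e-06). Gabarapl1, which coats autophagosomes, fell from 103 and 107 to 89 and 95 (-0.19, adjusted p = 0.0153), a call lost without untreated MEF replicate 2 (adjusted p = 0.113) or inhibitor-treated replicate 1 (0.17). Mcoln1, at 27 and 29 and then at 34 and 34, was called higher (0.27, adjusted p = 0.0114), but not without untreated MEF replicate 1 (0.107) or inhibitor-treated replicate 1 or replicate 2 (0.0595 and 0.0575). In all 12 members were called higher and 2 lower, when 17.9% of all genes were called, and the count of 14 was 9 without inhibitor-treated replicate 1. The other members called higher were Lamp1, Scarb2, Ctsa, Ctsd, Neu1, Psap, Atp6v1a and Atp6ap2. In a fit of these 2 groups alone 3 members were called and 6.83% of all genes.

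With the inhibitor present during induction, most members were higher than in DMSO, and the most on day 7. On day 1, 25 members were called higher and none lower (16.1% of all genes called, 3.47% higher). On day 5, 25 were higher and 1 lower (26.6% called, 7.87% higher), and on day 7, 35 were higher and none lower (34.1% called, 16.5% higher). The median log2 difference over the members was 0.23, 0.23 and 0.44 on these days, beside -0.085, -0.076 and 0 over all genes. Day 3 is a description only, with a median of 0.19 over the members and -0.076 over all genes. By the same rule 22 members would count as higher and 2 as lower (21.4% of all genes, 5.22% higher), and nothing is read from this. A fit of only the 2 groups compared, which leaves 2 residual degrees of freedom, called 9 members on day 1 (6.45% of all genes) and 12 on day 5 (7.39%). Over days 1, 5 and 7, 19 members were called higher on all 3 days, 10 on 2 days and 8 on 1 day. Glb1, Cln3, Atp6v1d, Gabarapl1 and Uvrag were called higher on none of them. At most 3.47% of all genes, the share higher on day 1, can have been called higher on all 3 days, and the shares for fewer days were not counted. Of the 10 fibroblast markers 0, 2 and 3 were called higher and 7, 6 and 1 lower on days 1, 5 and 7.

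In the cells that had received the inhibitor only before induction, most members were lower than in DMSO. On day 1, 1 member was called higher and 18 lower (11.6% of all genes called, 6.24% lower). On day 3 none was higher and 24 were lower (20.6% called, 6.87% lower), on day 5 none was higher and 30 were lower (25.6% called, 11.3% lower), and on day 7, 1 was higher and 27 lower (29.9% called, 14.5% lower). The median log2 difference over the members was -0.16, -0.20, -0.34 and -0.25, beside 0, 0.07, 0.037 and 0.053 over all genes. The day 1 count of 19 was 10 without DMSO day 1 replicate 1 and 12 without either pre-p38i library of that day. A fit of only the 2 groups compared called 4 members on day 1 (2.71% of all genes), 7 on day 3 (5.69%) and 19 on day 5 (9.48%). On all 4 days 12 members were lower: Gpnmb, Sqstm1, Lamp1, Ctsa, Ctsb, Ctsd, Ctsl, Ctsz, Psap, Atp6v0d1, Atp6v1a and Atp6ap1. At most 6.24% of all genes, the share lower on day 1, can have been called lower on all 4. Rragd, Mcoln1, Cln3, Uvrag, Flcn and Fnip2 were lower on no day. Fibroblast markers moved in the same direction: 3, 5, 8 and 10 of the 10 were called lower than in DMSO on the 4 days and none higher, and their part in the members' values was not tested.

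Both sets of differences use the same DMSO libraries, so a stray DMSO value would move both in the same direction. The p38i and pre-p38i arms were therefore also compared with each other, without DMSO. There 33 members were higher in p38i and 1 lower on day 1 (28.2% of all genes called, 8.25% higher), 33 and 1 on day 3 (42.2%, 10.7% higher), 38 and none on day 5 (47.5%, 16.3% higher) and 39 and none on day 7 (54.3%, 24.8% higher). The median over the members was 0.40, 0.38, 0.54 and 0.67 and over all genes -0.082, -0.16, -0.12 and -0.047. On all 4 days 28 members were higher in p38i, while Cln3, a lysosomal membrane protein lost in Batten disease, and Flcn were higher on none. At most 8.25% of all genes, the share higher on day 1, can have been called higher on all 4. Of the 10 fibroblast markers 1, 2, 4 and 9 were called higher in p38i on days 1, 3, 5 and 7 and 4, 7, 3 and 0 lower, and their part was not tested. Rragd, whose day 3 value in p38i was known when the group was put together, is counted in the 33 of day 3 and in the 28.

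**Figure D2:**
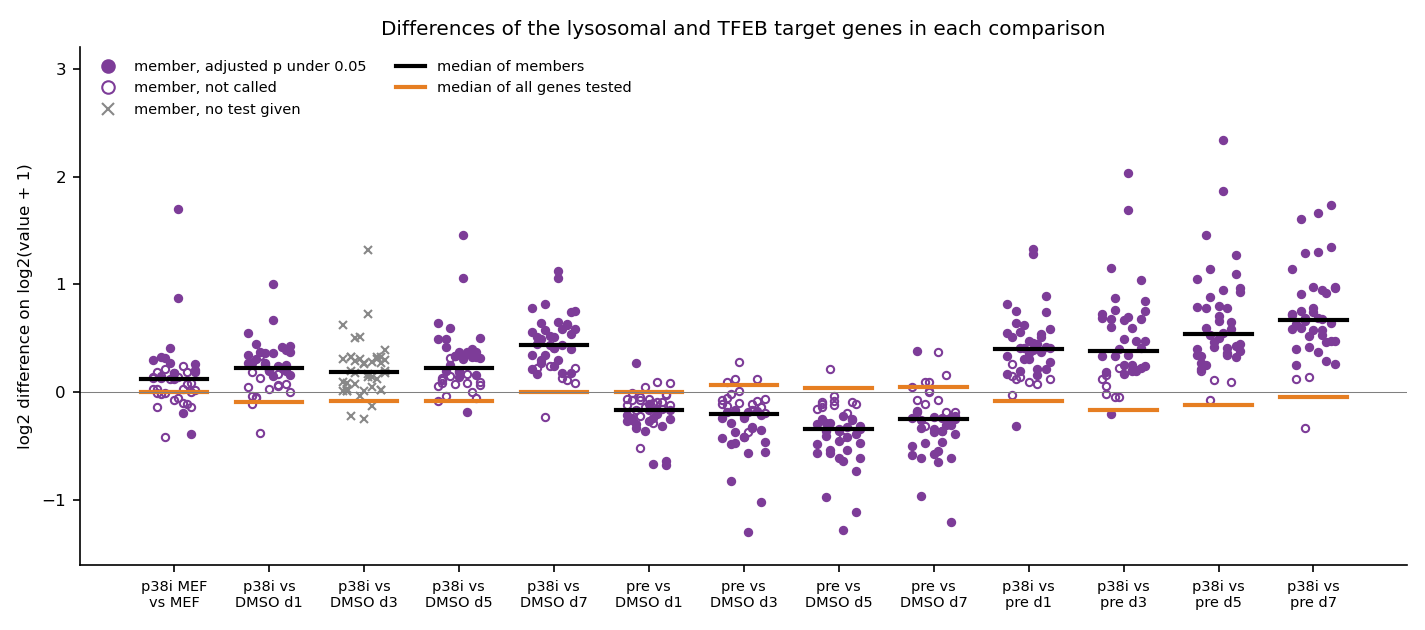
Difference in log2(value + 1) between the groups named on the horizontal axis for each of the 42 tested members (points, filled where the adjusted p was under 0.05; crosses for p38i against DMSO on day 3, for which no test is given). Black bars are the median of the members and orange bars the median of all 13230 genes: on day 7 they were 0.44 and 0 for p38i against DMSO, and -0.25 and 0.053 for pre-p38i against DMSO.

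The direction of these counts between the arms did not turn with the scaling. Quantile normalization of the log2 values moved the median of all genes by over 0.1 in p38i against DMSO on day 3 (from -0.076 to 0.043) and day 5 (to 0.029), in p38i against pre-p38i on days 3 and 5 (from -0.16 to 0.046 and from -0.12 to 0.023) and in DMSO days 1 and 7 against untreated MEFs (from 0.14 to -0.072 and from 0.20 to -0.096). It called 27 members higher and none lower in p38i against DMSO on day 1, 27 and none on day 5, and 37 and none on day 7. In pre-p38i the members called lower were 14, 26, 34 and 31 on the 4 days, with 1 higher on day 1. Over all genes it changed the balance of the calls: the higher share in p38i was 41.1% in place of 21.6% on day 1, 50.0% in place of 24.4% on day 3 and 52.7% in place of 29.6% on day 5. In pre-p38i on day 3 it was 50.7% in place of 66.7%, in p38i against pre-p38i on days 1, 3 and 5 it was 44.5%, 53.7% and 52.9% in place of 29.3%, 25.5% and 34.4%, and in DMSO against untreated MEFs it was 47.5% in place of 65.9% on day 1 and 44.8% in place of 64.4% on day 7. In DMSO day 5 against day 3 it was 50.8% in place of 71.3%.

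The spread was estimated over all 14 groups, and several calls of single genes rested on that. When each pair of groups was fitted alone, the log2 differences were the same but Rragd was no longer called in MEFs (adjusted p = 0.224) or in p38i on day 1 (0.0575). Sqstm1 was no longer called in MEFs (0.0666), in p38i on day 7 (0.0967) or in pre-p38i on day 3 (0.105). Gpnmb missed the threshold in p38i on day 5 (0.0538) and in pre-p38i on days 1 and 7 (0.0634 and 0.0526). Neu1 did so in p38i on day 1 (0.0939), Mcoln1 in MEFs and in p38i on days 1 and 5 (0.10, 0.289 and 0.0813), and Scarb2 in pre-p38i on day 1 (0.107). Flcn missed it in both arms on day 7 (0.154 and 0.245), as did Fnip2 in p38i on days 1, 5 and 7 (0.151, 0.142 and 0.0885) and Fnip1 in p38i and pre-p38i on day 5 (0.202 and 0.21). Fnip2 and Gabarapl1 in MEFs (0.173 and 0.16) and Gabarapl1 in p38i on day 5 (0.135) were also not called.

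Among the genes of the Rag-folliculin arm, Rragd had the largest log2 difference in p38i against DMSO on each day. Its high day 3 value was known when the group was put together. This rank is therefore a description, and the tests on other days are not read as separate support for it. Rragd encodes RagD, a GTPase that with RagA or RagB brings mTORC1 to the lysosome. Its values on days 1, 3, 5 and 7 were 8 and 7, 10 and 10, 10 and 12, and 13 and 17 in DMSO. In p38i they were 17 and 15, 25 and 28, 32 and 32, and 32 and 32, above every DMSO library of the same day. The log2 differences were 1.00 on day 1 (SE 0.16, adjusted p = 0.000248), 1.46 on day 5 (adjusted p = 1.67e-06) and 1.06 on day 7 (adjusted p = 4.85e-05), and the day 3 value was 1.32. In pre-p38i its values were 6 and 6, 8 and 7, 8 and 8, and 19 and 20, so both libraries lay below DMSO on days 1, 3 and 5 and above it on day 7. None of these 4 differences passed the test (-0.28, -0.37, -0.41 and 0.37, adjusted p = 0.317, 0.113, 0.0725 and 0.0971), although after quantile normalization those of day 3 and day 5 did, at -0.52 and -0.50 (adjusted p = 0.0146 and 0.0131). Between p38i and pre-p38i it differed by 1.28, 1.87 and 0.69 on the log2 scale on days 1, 5 and 7, all called, and the day 3 value, given with no test, was 1.69.

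Flcn, Fnip1 and Fnip2 encode folliculin and its partner proteins, the complex that acts on RagC and RagD. Flcn was at 38 and 36 in DMSO on day 7, at 61 and 46 in p38i and at 56 and 42 in pre-p38i, and was called higher in both (0.51 and 0.38, adjusted p = 0.00403 and 0.0276). The first call was lost without p38i day 7 replicate 1 (adjusted p = 0.108). The second was lost without pre-p38i day 7 replicate 1 (adjusted p = 0.387), without DMSO day 7 replicate 1 (0.0667) or replicate 2 (0.14), and after quantile normalization (0.054). On days 1, 3 and 5 its libraries lay between 27 and 47 in all arms and no comparison with DMSO was called. Fnip1 was at 20 and 19, 22 and 23, 24 and 28, and 19 and 21 in DMSO and at 22 and 24, 28 and 29, 35 and 31, and 32 and 31 in p38i. It was called higher in p38i on day 1 only after quantile normalization (adjusted p = 0.0187, against 0.107), on day 5 (0.33, adjusted p = 0.011, lost without DMSO day 5 replicate 1 at 0.144 or p38i day 5 replicate 1 at 0.13) and on day 7 (0.63, adjusted p = 2.63e-05). In pre-p38i it was at 17 and 18, 24 and 25, 22 and 21, and 24 and 21, and the only call was a fall on day 5 (-0.26, adjusted p = 0.0446) that any of 3 libraries decided (0.363 without DMSO day 5 replicate 2, 0.0918 and 0.193 without pre-p38i day 5 replicate 1 and 2). Fnip2 was at 16 and 14, 13 and 13, 17 and 18, and 13 and 15 in DMSO, at 20 and 19, 18 and 20, 21 and 24, and 19 and 22 in p38i, and at 16 and 15, 16 and 16, 15 and 17, and 15 and 13 in pre-p38i. It was called higher in p38i on day 1 (0.36, adjusted p = 0.0368), day 5 (0.34, adjusted p = 0.0319) and day 7 (0.52, adjusted p = 0.00149) and in pre-p38i on no day. The day 1 call was lost without any one of its 4 libraries (adjusted p = 0.0512 and 0.233 without DMSO replicate 1 and 2, 0.174 and 0.0944 without p38i replicate 1 and 2), and the day 5 call without DMSO replicate 1 or 2 (0.145 and 0.0717) or p38i replicate 2 (0.23).

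Of the lysosomal membrane and lipid export genes, Gpnmb had the largest log2 difference in p38i against DMSO on each day. Its values on days 1, 3, 5 and 7 were 66 and 63, 105 and 101, 72 and 82, and 48 and 53 in DMSO, and 99 and 108, 167 and 177, 175 and 149, and 117 and 105 in p38i. In pre-p38i they were 42 and 39, 43 and 40, 30 and 32, and 36 and 33. On each day every p38i library lay above the DMSO libraries and every pre-p38i library below them. The p38i difference was 0.67 on day 1 (adjusted p = 1.46e-05), 1.06 on day 5 (2.43e-08) and 1.12 on day 7 (7.29e-09), with 0.73 on day 3. Against DMSO, pre-p38i differed by -0.66, -1.29, -1.28 and -0.54 on the 4 days (SE 0.084, adjusted p = 3.07e-05, 2.68e-09, 1.64e-09 and 7.12e-05). The inhibitor-treated MEFs, at 120 and 115, thus lay above every pre-p38i library taken after induction.

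Mcoln1 encodes the lysosomal calcium channel TRPML1. It was at 53 and 50, 62 and 63, 64 and 63, and 51 and 54 in DMSO and at 68 and 57, 77 and 78, 84 and 77, and 71 and 72 in p38i. It was called higher on day 1 (0.27, adjusted p = 0.0132), day 5 (0.34, adjusted p = 0.00162) and day 7 (0.44, adjusted p = 8.64e-05), and the day 1 call was lost without p38i day 1 replicate 1 (adjusted p = 0.263) or DMSO day 1 replicate 2 (0.103). In pre-p38i it was at 45 and 48, 61 and 56, 60 and 60, and 53 and 53, and no day passed the test (-0.14, -0.095, -0.08 and 0.014). Npc2, which hands cholesterol on to the membrane protein Npc1, was at 253 and 270 in DMSO on day 7, at 465 and 459 in p38i and at 191 and 185 in pre-p38i (0.82 and -0.47, adjusted p = 1.17e-10 and 1.35e-07). Npc1 itself moved less: 33 and 30, 41 and 45, and 27 and 26 in the same order (0.44 and -0.24, adjusted p = 0.000416 and 0.0356). Lamp1 and Lamp2, the abundant glycoproteins that line the lysosome, were higher in p38i by 0.51 and 0.45 on day 7, and on days 1 and 5 Lamp1 was called and Lamp2 was not. Scarb2 behaved differently in time. In pre-p38i it was at 161 and 165 on day 1 against 139 and 132 in DMSO, the only member called higher that day (0.27, adjusted p = 0.00216), and at 95 and 97 on day 7 against 146 and 149 (-0.61, adjusted p = 2.91e-08). In p38i on day 3 it was at 177 and 181 against 212 and 205. Cln3, at 6 to 27 in all libraries, was called in none of the comparisons with DMSO, its p38i difference being -0.38 on day 1 (SE 0.19).

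The autophagy genes did not move together. Sqstm1 was at 739 and 723, 801 and 753, 883 and 902, and 727 and 733 in DMSO. In p38i it was at 873 and 869, 793 and 780, 874 and 843, and 858 and 799, and it was called higher on day 1 (0.25, adjusted p = 0.000524) and day 7 (0.18, adjusted p = 0.00362, but 0.0739 without p38i day 7 replicate 1). On day 5 the p38i libraries lay below DMSO (-0.056, adjusted p = 0.392), and on day 3 the groups overlapped. In pre-p38i it was at 457 and 480, 677 and 668, 673 and 689, and 613 and 577, lower on all 4 days (-0.64, -0.21, -0.39 and -0.30, adjusted p = 1.56e-08, 0.00241, 2.3e-06 and 4.55e-05). Map1lc3b, which encodes the LC3B protein of autophagosomes, was at 148 and 158 in DMSO on day 7. It was higher in p38i, at 234 and 236 (0.62, adjusted p = 4.81e-09), and lower in pre-p38i, at 123 and 125 (-0.30, adjusted p = 4.08e-05). Its relative Gabarapl1 was at 138 and 137 in p38i on day 7 against 131 and 121 in DMSO (adjusted p = 0.0688) and was lower in pre-p38i, at 88 and 95 (-0.46, adjusted p = 1.46e-06). On day 5 it was the only member called lower in p38i (132 and 141 against 156 and 153, -0.18, adjusted p = 0.0157), a call lost without DMSO day 5 replicate 1 (0.081) or p38i day 5 replicate 1 (0.157) and after quantile normalization (0.115). Uvrag, a partner of the Beclin 1 lipid kinase complex, lay between 13 and 27 in all libraries and passed in no comparison with DMSO.

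The hydrolases and their activators, the enzymes that do the breakdown, were higher in p38i and lower in pre-p38i through most of the course. Their 14 values summed to 4738 and 4870 in DMSO on day 7, to 7148 and 7091 in p38i and to 3031 and 3017 in pre-p38i, and to 3514 and 3601 in untreated MEFs. In p38i 13 of 14 were called higher on day 7, 11 on day 5 and 8 on day 1 (16.5%, 7.87% and 3.47% of all genes higher). In pre-p38i 7, 12, 13 and 11 were called lower on days 1, 3, 5 and 7 (6.24%, 6.87%, 11.3% and 14.5% of all genes lower). Neu1 led in p38i: it was at 88 and 101, 98 and 91, 90 and 84, and 76 and 83, against 65 and 63, 63 and 59, 57 and 54, and 47 and 45 in DMSO. Its log2 difference was 0.55 on day 1 (adjusted p = 2.65e-05), 0.64 on day 5 (2.13e-06) and 0.78 on day 7 (1.4e-07), and 0.62 on day 3. In pre-p38i it was at 54 and 52, 58 and 58, 52 and 48, and 47 and 48, and was called lower on day 1 only. Ctsa, the carboxypeptidase that protects Neu1, was at 441 and 418 in p38i on day 7 against 249 and 260 (0.75, adjusted p = 1.01e-09). Tpp1, a peptidase lost in a form of Batten disease, was an exception on day 3, at 277 and 255 in p38i against 327 and 305 in DMSO, and was called higher on days 5 and 7.

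In pre-p38i the cysteine and aspartic proteases led. Ctsl, cathepsin L, was at 1013 and 1000, 1396 and 1377, 1138 and 1181, and 737 and 801 in DMSO and at 642 and 625, 682 and 688, 541 and 534, and 334 and 334 in pre-p38i. It was thus lower on every day (-0.67, -1.02, -1.11 and -1.20, adjusted p = 3.67e-08, 5.35e-11, 6.13e-12 and 9.26e-13). Its p38i libraries, at 1067 and 1056 on day 1 and 1420 and 1399 on day 3, lay just above DMSO on those days and clearly above it on day 7, at 1121 and 1118. Ctsd, cathepsin D, was at 1621 and 1573, 2255 and 2086, 1564 and 1609, and 1063 and 1116 in DMSO, at 1950 and 2010, 2745 and 2690, 2257 and 2213, and 1713 and 1686 in p38i, and at 1273 and 1266, 1227 and 1222, 819 and 799, and 560 and 556 in pre-p38i. The arms did not overlap on any day. Its pre-p38i difference was -0.82 on day 3, -0.97 on day 5 and -0.96 on day 7 (adjusted p = 2.3e-11, 8.42e-13 and 3.05e-13). Ctsb, cathepsin B, was at 584 and 602 in DMSO on day 7, at 925 and 935 in p38i and at 383 and 373 in pre-p38i (0.65 and -0.65, adjusted p = 1.85e-11 and 5.51e-12). Hexa, the α subunit of β-hexosaminidase, was at 146 and 153, 246 and 256, and 97 and 98 in the same order (0.74 and -0.61). Gaa, which digests glycogen, Ctsz, Psap, the precursor of the saposins, Gusb and Asah1, the acid ceramidase, were called higher in p38i and lower in pre-p38i on day 7. Gla, the α-galactosidase, was called in p38i (0.35, adjusted p = 0.0382) and not in pre-p38i (-0.31, adjusted p = 0.0684), and Glb1, the β-galactosidase, in neither.

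**Figure D3:**
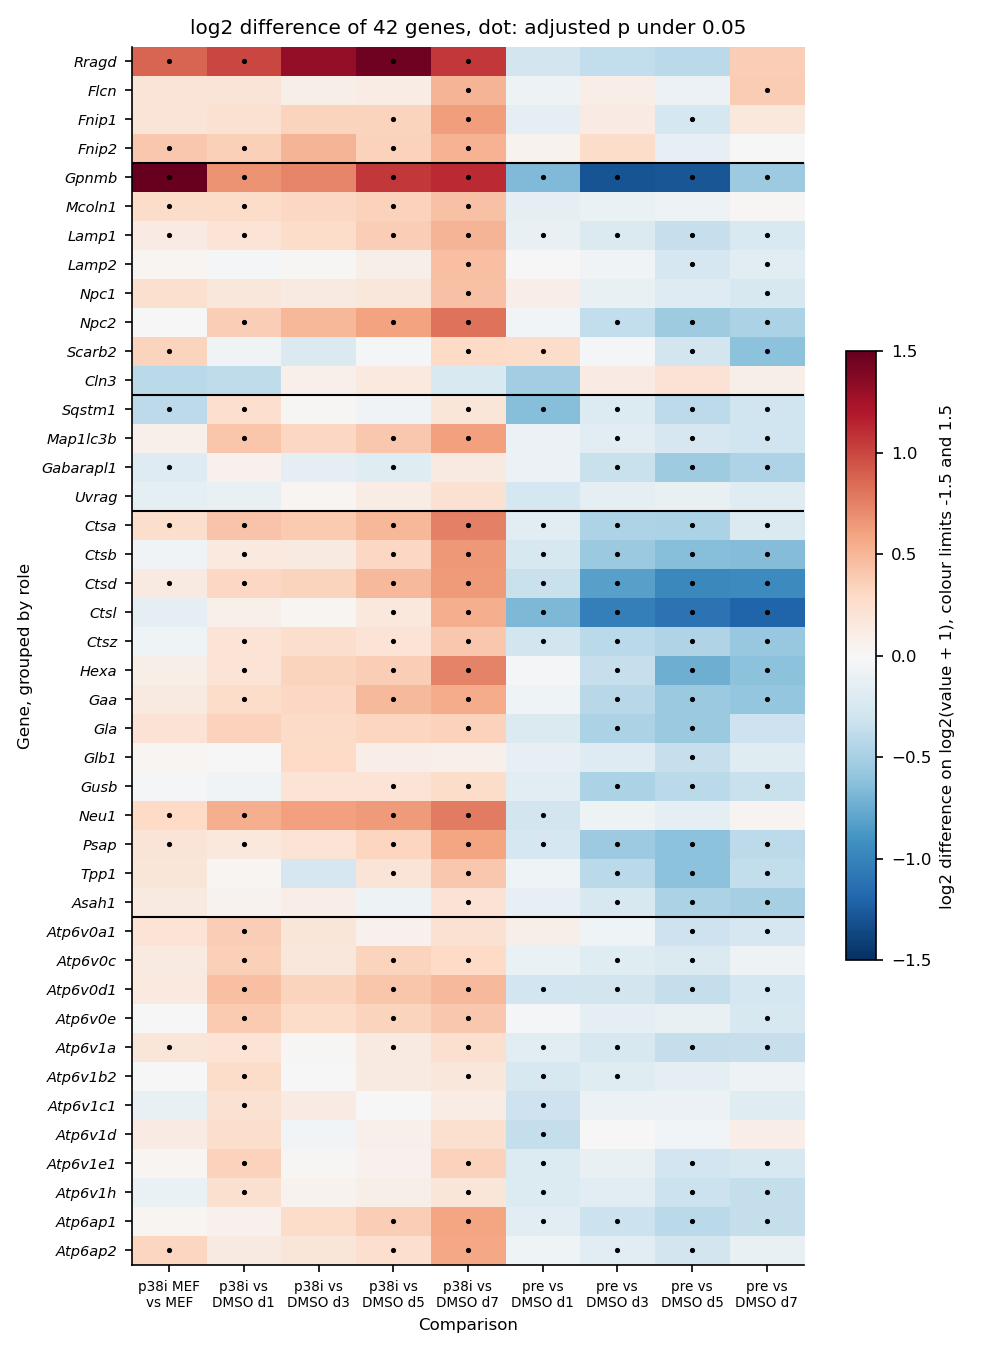
Difference in log2(value + 1) of the 42 tested members (vertical axis, grouped by role between the black lines) in each comparison with controls (horizontal axis); red is higher and blue lower in the group named first, and a dot marks an adjusted p under 0.05 in limma. The p38i column of day 3 carries no dots because no test is given, and the Gpnmb value in MEFs, 1.70, lies beyond the end of the colour scale. The p38i columns are mostly red, with 35 of 42 called on day 7 (34.1% of all genes), and the pre-p38i columns mostly blue, with 30 called on day 5 (25.6% of all genes).

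As many V-ATPase genes were called higher in p38i on day 1 as on day 7. The pump has a soluble V1 part that splits ATP and a membrane V0 part that carries the protons. Summed over the 13 genes, the day 1 values were 3179 and 3091 in DMSO against 3826 and 3863 with p38i, and those of day 7 were 2534 and 2560 against 3330 and 3208. In p38i 9 of 12 tested genes were called higher on day 1, 6 on day 5 and 9 on day 7, with medians of 0.26, 0.13 and 0.27. The shares of all genes called higher on these days were 3.47%, 7.87% and 16.5%. Atp6v0d1, the stalk subunit of the V0 part, was at 327 and 347 on day 1 against 248 and 244 (0.45, adjusted p = 4.43e-06) and at 228 and 218 on day 7 against 153 and 163 (0.49, adjusted p = 4.59e-07). In pre-p38i on day 7 it was at 132 and 132 (-0.26, adjusted p = 0.000765). Of the V0 genes Atp6v0c, the proton-carrying ring subunit, was called higher on days 1, 5 and 7, as was Atp6v0e, and Atp6v0a1 on day 1 only. Of the V1 genes Atp6v1a, the catalytic subunit, was called on all 3 days, Atp6v1b2, Atp6v1e1 and Atp6v1h on days 1 and 7, Atp6v1c1 on day 1 and Atp6v1d on none.

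The accessory proteins followed a later course. Atp6ap1 was at 395 and 367 in p38i on day 1 against 377 and 354 (0.06, adjusted p = 0.457) and at 410 and 395 on day 7 against 266 and 269 (0.59, adjusted p = 2.15e-08). Atp6ap2, also known as the prorenin receptor, was at 218 and 219 against 201 and 197 on day 1 (0.13, adjusted p = 0.0919) and at 278 and 303 against 198 and 190 on day 7 (0.58, adjusted p = 8.49e-08). In pre-p38i 8, 6, 8 and 7 of the 12 genes were called lower on days 1, 3, 5 and 7 and none higher (6.24%, 6.87%, 11.3% and 14.5% of all genes lower). Atp6v0d2 was listed at 0 in all 8 pre-p38i libraries and in all 4 MEF libraries, and at 1 to 3 in every p38i library of induction. In DMSO its values were 1 and 0, 1 and 2, 2 and 1, and 0 and 1.

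The gap between the arms widened from day 1 to day 7 for part of the members, by a test of the difference of differences. For p38i 19 members were called as higher relative to DMSO on day 7 than on day 1 and none as lower (21.6% of all genes called, 14.1% higher). Of the 10 fibroblast markers 8 were called higher in the same sense and none lower, with a median of 0.73 beside 0.22 over the members. The largest were Hexa (0.54, adjusted p = 1.76e-05), Atp6ap1 (0.53, adjusted p = 1.76e-05) and Ctsb (0.50, adjusted p = 1.5e-07). Of the 14 hydrolases and activators 10 were among them, and of the 12 V-ATPase genes 2. For pre-p38i 15 members were lower relative to DMSO on day 7 than on day 1 and 2 were higher (16.7% called), a count of 17 that was 11 without pre-p38i day 1 replicate 2. Of the fibroblast markers 7 were lower and none higher (median -0.47), and their part in either count was not tested. Scarb2 (-0.88), Ctsd (-0.63) and Hexa (-0.60) led the falls, while Sqstm1 (0.35, adjusted p = 0.000693) and Neu1 (0.31, adjusted p = 0.0425) were nearer to DMSO or above it on day 7. The call of Neu1 was lost without any one of its 8 libraries (adjusted p between 0.0611 and 0.133), after quantile normalization (0.0801) and with the replicate number as a block (0.0543).

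Altogether 23 of the 42 tested members were called higher in p38i on at least 2 of days 1, 5 and 7 and lower in pre-p38i on at least 2 of the 4 days, as were 330 of all 13230 genes (2.49%). The comparisons behind this count share the DMSO libraries. The 23 were Gpnmb, Lamp1 and Npc2 of the membrane and lipid export group, Sqstm1 and Map1lc3b, the hydrolases Ctsa, Ctsb, Ctsd, Ctsl, Ctsz, Hexa, Gaa, Gusb, Psap and Tpp1, and Atp6v0c, Atp6v0d1, Atp6v1a, Atp6v1b2, Atp6v1e1, Atp6v1h, Atp6ap1 and Atp6ap2. No gene of the Rag-folliculin arm was among them. The medians of the 12 members with TCACGTG in the promoter window and of the 24 without it lay nearer to each other in some comparisons than in others, and their difference was not tested. In p38i against DMSO the day 1 medians were 0.27 and 0.21, those of day 5 were 0.34 and 0.20, and those of day 7 were 0.46 and 0.48. In pre-p38i the day 5 medians were -0.35 and -0.35 and those of day 7 were -0.23 and -0.30. The change of the p38i difference from day 1 to day 7 had medians of 0.16 with the motif and 0.32 without.

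Many of these genes are also strongly expressed in macrophages, and markers of that cell type were therefore followed beside them. The 20 markers summed to 367 and 346 in untreated MEFs, to 224 and 226 in inhibitor-treated MEFs, and on days 1, 3, 5 and 7 to 287 and 276, 506 and 507, 662 and 669, and 415 and 426 in DMSO. In p38i they summed to 163 and 171, 212 and 216, 239 and 226, and 284 and 236, and in pre-p38i to 96 and 87, 260 and 252, 260 and 232, and 122 and 122. Of the 17 tested markers 9 were called lower and 1 higher in p38i on day 7 and 16 lower in pre-p38i (34.1% and 29.9% of all genes called). The summed level thus lay below DMSO in both arms on every day, but single markers did not all follow it. Mpeg1, a pore protein of phagocytes, was at 65 and 65 in pre-p38i on day 3 against 23 and 29 in DMSO, and at 72 and 69 on day 5 against 55 and 55. Lyz2, the most abundant of them, was at 98 and 109, 135 and 113, and 9 and 7 on day 7 in DMSO, p38i and pre-p38i. Csf1r was at 15 or less in every library, at 15 and 13 in untreated MEFs and at 4 and 3 in DMSO on day 5. Cx3cr1 was at 6 and 5 in untreated MEFs and listed at 0 in the other 26 libraries. Lyz2 rose from 154 and 152 to 270 and 261 over the same span, and Laptm5 from 15 and 13 to 131 and 142. From untreated MEFs to DMSO day 1, 3 of the 17 tested markers were called higher and 7 lower (55.5% of all genes called). The part of macrophage RNA in the values of either arm was not tested.

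**Figure D4:**
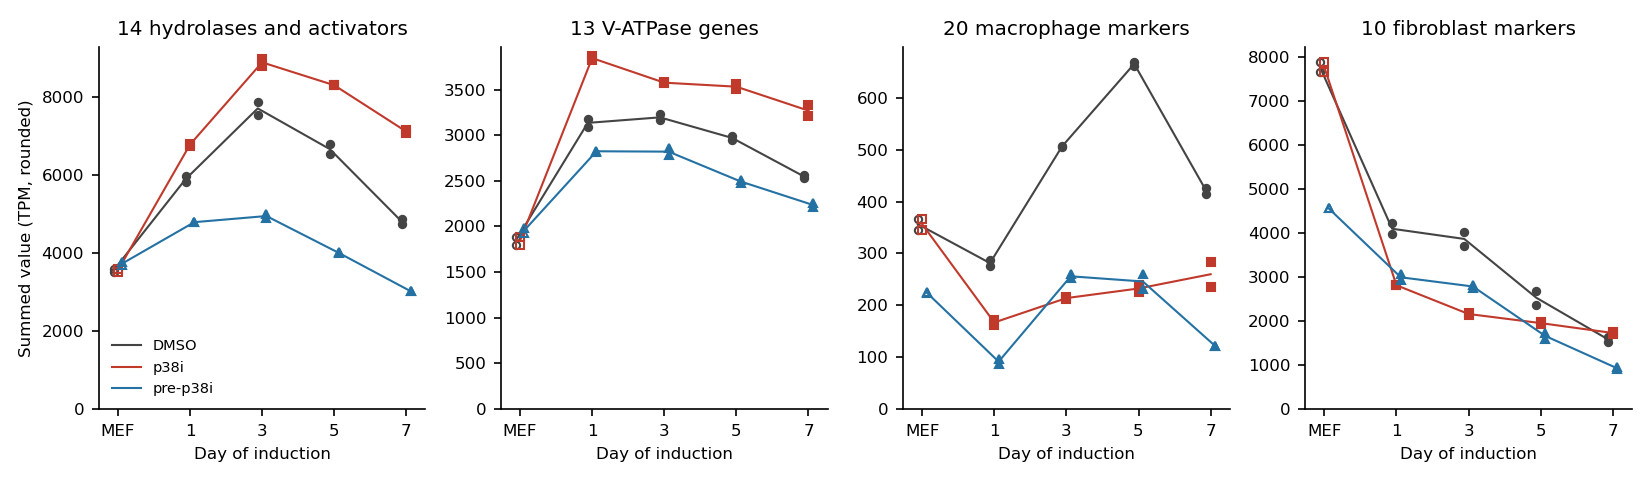
Summed values (TPM, rounded down) of the 14 hydrolases and activators, the 13 V-ATPase genes, 20 macrophage markers and 10 fibroblast markers in MEFs and on each day of induction; points are libraries and lines group means, with open symbols for MEFs. The hydrolase sum on day 7 was 7148 and 7091 in p38i, 4738 and 4870 in DMSO and 3031 and 3017 in pre-p38i, whereas the macrophage sum was highest in DMSO on every day of induction.

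The rest of the pathway was read from lists of other genes. Of 65 further lysosomal genes tested (hydrolases, membrane proteins and V-ATPase subunits) 40 were called higher and 1 lower in p38i on day 7, and 27 lower and 4 higher in pre-p38i, with medians of 0.35 and -0.19. Of all genes 34.1% were called in p38i that day (16.5% higher) and 29.9% in pre-p38i (14.5% lower). Beyond 1 on the log2 scale in pre-p38i were Ctss, Ctsh, Ctsk and Slc11a1, lower on at least 1 day, and Acp5, the tartrate-resistant acid phosphatase, higher on day 7 at 14 and 18 against 10 and 5. Ctsk, cathepsin K, was at 53 and 50 on day 7 against 148 and 168, with 210 and 208 in p38i. Atp6v1c2, a tissue-restricted V1 subunit, went the other way from the ubiquitous pump genes, with day 5 values of 8 and 8 in pre-p38i, of 5 and 1 in DMSO, and of 1 and 0 in p38i. In MEFs Ctsc, cathepsin C, fell with the inhibitor from 45 and 50 to 17 and 21. Of the 9 sorting receptor genes 5 were called higher in p38i on day 7, Sort1 the most, at 23 and 24 against 10 and 10. On day 1 none of the 9 was called, and on day 5, 3 were higher and 1 lower (16.1% and 26.6% of all genes called).

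Of the MiT/TFE factors themselves, Tfe3 differed between the arms and Tfeb passed the test in none. Tfeb was at 13 and 11, 11 and 12, 11 and 11, and 13 and 7 in DMSO, at 9 and 14, 10 and 9, 9 and 9, and 8 and 10 in p38i, and at 15 and 15, 15 and 13, 12 and 11, and 14 and 12 in pre-p38i. No difference between arms was called, while its rise from 4 and 4 in untreated MEFs to DMSO day 1 was (1.37, SE 0.21). Tfe3 was lower than in DMSO in p38i on day 1 (46 and 49 against 64 and 64, -0.42, adjusted p = 0.00116), day 5 (-0.29, adjusted p = 0.0128) and day 7 (-0.27, adjusted p = 0.0146) and higher in pre-p38i on day 3 (0.28, adjusted p = 0.0176). Mitf lay between 0 and 3 in all libraries, where whole numbers resolve little, and was called lower in both arms on day 5 and in pre-p38i on day 7. Tfec did not pass the filter. Of the 20 tested genes of the Rag, Ragulator, GATOR and mTORC1 list 5 were called higher and 1 lower in p38i on day 7, and 4 higher and 1 lower in pre-p38i. These counts lay near or below the share of all genes called, 34.1% and 29.9%. Between p38i and pre-p38i Tfe3 was lower in p38i on all 4 days (-0.61, -0.44, -0.41 and -0.46), opposite in sign to most of the members. Of 29 other autophagy genes 10 were higher and 2 lower in p38i on day 7 and 3 higher and 4 lower in pre-p38i, beside the same shares. In pre-p38i Bnip3, a mitophagy receptor, was higher on day 7 by 1.29 on the log2 scale, at 53 and 41 against 18 and 19. Atg9b, at 0 to 3 in every library, was called lower in p38i on days 5 and 7 and in pre-p38i on days 1 and 3.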

How the data were processed

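RNA was sequenced from 28 MEF libraries in 14 groups of 2, and groups were taken from the labels. The authors deposited 1 table of 50600 genes whose values are treated here as a score: whole numbers that sum to nearly the same total in each library and are read as TPM rounded down, which is inferred from the values. Depth is therefore unknown, and values of a few units are coarse. Per the submitters' processing notes, bcl2fastq, Bowtie2 2.2.5, RSEM 1.3.0 and the builds mm10 and hg38 were used. Values were analysed as log2(value + 1) with limma 3.58.1 (lmFit, eBayes with a trend) in R 4.3.3, over 13230 genes with a mean of at least 1. The 14 groups entered 1 model, so each difference uses the spread of all groups. P-values were Benjamini-Hochberg adjusted over all genes tested, two-sided, and called under 0.05. On this scale the folds of low genes come out too small.

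The members and lists were chosen with earlier results of these data known, so lists are described by counts and medians beside all genes. Every member is named. Values in each library are given for Rragd, Gpnmb, Sqstm1, Mcoln1, Flcn, Fnip1 and Fnip2 and, in each comparison with controls, for up to 3 called members with the largest rise and up to 3 with the largest fall whose groups did not overlap. Genes of other lists are named where called with a log2 difference of at least 1, and other members were named to fill each role. Alternatives were another pseudocount, no filter on low values or a minimum mean of 5, quantile normalization, a fit of only the groups compared, a replicate block and leaving out each library. The script was tested on simulated data.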

Additional observations from a re-analysis of the deposited data

Results flagged for a closer look

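These results were singled out because the difference between arms was not the same on day 7 as on day 1, by a test of the difference of differences in limma. In p38i against DMSO 19 members differed in this way (21.6% of all genes called), Hexa by 0.54, Atp6ap1 by 0.53 and Ctsb by 0.50 on the log2 scale (adjusted p = 1.76e-05, 1.76e-05 and 1.5e-07). In pre-p38i against DMSO 17 members did (16.7% of all genes called). Scarb2 changed by -0.88, Ctsd by -0.63 and Hexa by -0.60 (adjusted p = 8.22e-08, 7.05e-08 and 5.47e-06), whereas Sqstm1 changed by 0.35 and Neu1 by 0.31 (adjusted p = 0.000693 and 0.0425). Scarb2 was thus higher than in DMSO on day 1, by 0.27, and lower on day 7, by -0.61. The call of Neu1 was lost when any 1 of its libraries was left out. In the same test 8 of the 10 fibroblast markers were called higher in p38i and 7 lower in pre-p38i. Their part and the causes were not tested. Groups of 2 libraries are too small for a test of outlying samples.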

How the results depend on the processing

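Counts of members called were within 1.5 times the reported count in 191 of 208 alternatives, and the named log2 differences kept their sign and their side of the threshold in 825 of 912. Both tallies, and the count of 8 members (7.89%) in the next sentence, take in p38i against DMSO on day 3. No test is given for that comparison, and nothing is read from that part. Fitting no groups but those compared, which has few degrees of freedom, called 3 members in MEFs, 9, 8 and 12 in p38i against DMSO on days 1, 3 and 5, 4, 7 and 19 in pre-p38i against DMSO on days 1, 3 and 5, and 12, 0 and 16 in DMSO day 3 against day 1, day 5 against day 3 and day 7 against day 5, when 6.83%, 6.45%, 7.89%, 7.39%, 2.71%, 5.69%, 9.48%, 28.0%, 2.76% and 10.6% of all genes were called (for the count of 0, 14 members had an unadjusted limma p under 0.05). Leaving out 1 library gave 9 to 14 members in MEFs, 18 to 23, 18 to 24 and 30 to 33 in p38i (days 1, 5 and 7), 10 to 13, 19 to 21, 26 to 30 and 24 to 26 in pre-p38i, 29 to 30, 29 to 31, 37 and 38 to 39 in p38i against pre-p38i, 42, 17 to 18, 9 to 13, 27 to 29 and 35 to 38 along the DMSO arm, and 14 to 18 and 11 to 16 for the differences of differences. The sign turned only in differences that were never called. With quantile normalization these were Sqstm1 in p38i on day 3 (-0.0093) and Mcoln1 in pre-p38i on day 7 (-0.031). Without 1 library they were, in p38i on day 3, Sqstm1 (-0.026 to 0.063) and Flcn (-0.038 to 0.20), lowest without DMSO replicate 2. In pre-p38i they were Flcn (-0.19 to 0.045) and Fnip2 (-0.044 to 0.14) on day 1, Flcn on day 3 (-0.019 to 0.22), and Mcoln1 (-0.026 to 0.054) and Fnip2 (-0.096 to 0.096) on day 7. The cause was not tested. No pairing by replicate number was seen within a time point (correlations of deviations between -0.0159 and 0.0513 over 13 pairs of groups). With 2 libraries a group and rounded values this cannot exclude a shared culture or batch, and pairing across days was not tested. With the number as a replicate block 14 members were called in MEFs, 25, 25 and 35 in p38i (days 1, 5 and 7) and 17, 23, 29 and 27 in pre-p38i, and of the named differences Fnip1 in pre-p38i on day 5 (adjusted p = 0.09) and the change of Neu1 (0.0543) were no longer called. With 2 libraries a group, small differences may be missed, and values under about 5 are limited by rounding.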
